A study of Drosophila melanogaster with 3 samples.

Results

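The eukaryotic translation initiation factor (eIF) genes were taken as the protein-coding genes of the Ensembl BDGP6 annotation whose symbol begins with eIF and a digit. There were 44 of them among 13968 protein-coding genes. They were examined in chromatin immunoprecipitation data (ChIP-seq) for slou, the homeodomain factor slouch, which is known for its role in the identity of individual muscles. The 3 biological replicates form 1 group. Each is a sample of whole, mixed-sex Drosophila melanogaster embryos aged 0 to 24 h from a transgenic line carrying slou fused at its C-terminus to eGFP, precipitated with an anti-GFP antibody (the antibody field of the labels names slou itself). All 3 carry the same fusion, no other genotype or treatment is among the samples, and whole embryos mix every cell type, so binding in slou-expressing cells cannot be told apart from binding elsewhere. Because there is a single group, no difference between conditions was tested, and members are described by counts beside those of all protein-coding genes.

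Initiation factors bring the initiator tRNA, the small ribosomal subunit and the mRNA together. The eIF4 proteins bind the cap and unwind the 5′ end, eIF2 delivers the initiator tRNA and is recharged with GTP by eIF2B, eIF3 is the large scaffold on the small subunit, eIF1 and eIF1A govern the choice of start codon, and eIF5B and eIF6 act on the joining and release of the large subunit. The genes are used in nearly all cells, and several have paralogs with a narrower use, such as eIF4E3 and eIF4G2 in the fly testis.

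A gene was counted as bound when the summit of a peak of the authors' dm6 optimal list lay in its body or within 1 kb upstream. That list holds the 2743 highest-scoring entries of the 30000 listed for the replicates pooled. The authors label the pooled list as peaks and background. Its entries outside the optimal list are called pooled-list peaks here, though they may be background. Peaks are ranked within a list by the score that the authors gave each peak, with rank 1 the highest, and the depth of the libraries is unknown. Of the 44 eIF genes 11 were bound, 25.0% (95% Wilson interval over genes 14.6 to 39.4, counting error only), beside 19.7% of all protein-coding genes. The background share lies inside that interval. Another 18 members had a pooled-list summit in their window that was not in the optimal list, and 15 had none. Of the members with any pooled-list summit 37.9% were bound, beside 31.1% of all genes with one. The slou gene itself had 0 optimal summits, and its best pooled-list peak ranked 15376.

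The 11 bound genes encode proteins of different steps. They were eIF2Bbeta, eIF6, eIF4EHP, eIF1, eIF3c, eIF5B, eIF3h, eIF1A, eIF3m, eIF4E1 and eIF3a, in the order of their best peak. Their best peaks had a median pooled rank of 905, beside 1136 for all bound genes. Of the 11 best summits, 10 lay upstream of the member's nearest transcription start site (TSS), at a median of -61 bp over all 11. That side is general to the list. Of the optimal peaks within 500 bp of any protein-coding TSS, 88.2% lay upstream of the nearest one, beside 83.3% of those in member windows. In all, 10 members had an optimal summit within 500 bp of one of their own TSSs, 22.7%, beside 15.1% of all protein-coding genes. The exception among the bound genes was eIF2Bbeta, whose peak was the highest of the 11.

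**Figure D1:**
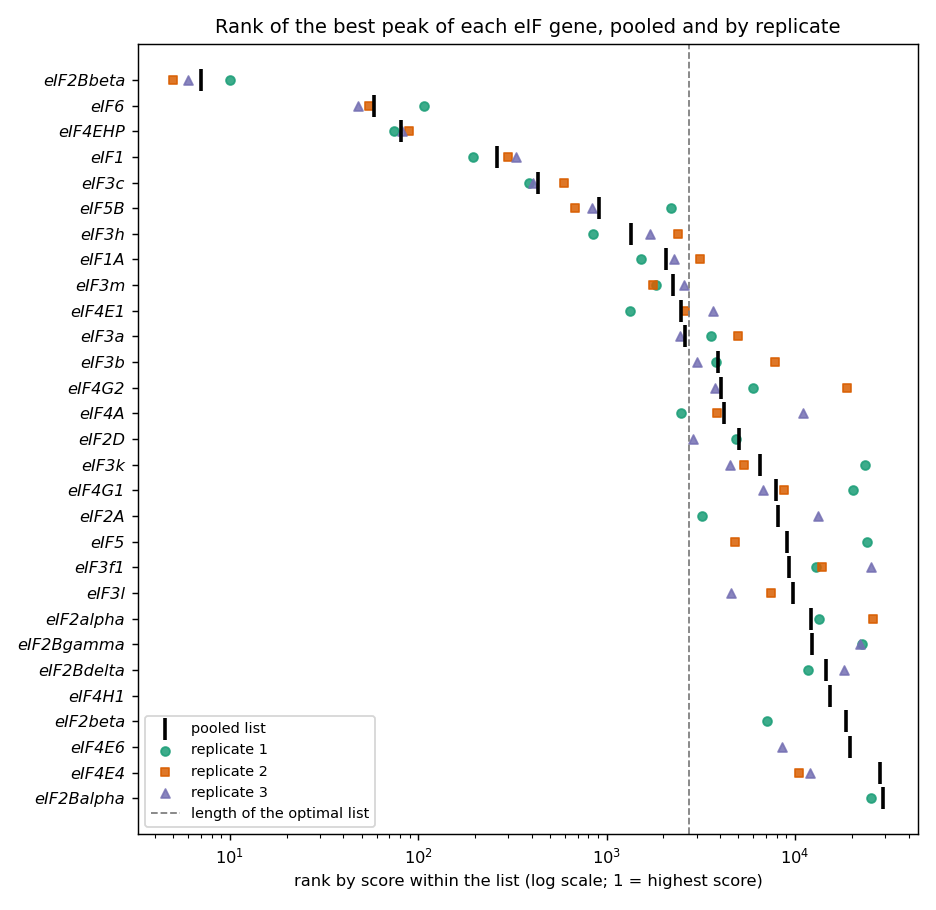
Rank of the best peak in the window of each of the 29 eIF genes with a pooled-list peak, by score within the list, on a log axis. Black bars give the pooled list and coloured points the overlapping peak in replicates 1, 2 and 3, with no point where a replicate list holds no overlapping peak. The dashed line marks rank 2743, and the 11 bound genes lie to its left, from eIF2Bbeta at rank 7 to eIF3a at rank 2589.

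The highest peak in the window of an eIF gene stood at the start of a neighbour. It lay upstream of eIF2Bbeta, which encodes a regulatory subunit of the exchange factor eIF2B, at chrX:2703728-2704061. Its score was 1090 and its pooled rank 7. It ranked 10, 5 and 6 in replicates 1, 2 and 3, so all 3 libraries placed it near the top of their lists. The summit was 651 bp upstream of the eIF2Bbeta TSS but only 68 bp from that of Ugalt, which encodes a UDP-galactose transporter and is transcribed in the opposite direction.

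The eIF4EHP and eIF1 peaks had the same layout. The eIF4EHP gene encodes a cap-binding protein that represses translation of certain mRNAs in the fly embryo. Its best peak, at chr3R:24109113-24109363, had a score of 462 and a pooled rank of 81, with ranks of 74, 89 and 82 in replicates 1, 2 and 3. The summit was 265 bp from the eIF4EHP TSS and 111 bp from that of CG18428. A second optimal summit lay 9798 bp inside the gene in an intron, nearer to the TSS of Syx1A at 6601 bp. Its pooled rank was 2169 and its replicate ranks 4839, 4024 and 1361, so a single replicate placed it among its top 2743. The peak at eIF1, at chr3L:3222916-3223097, had a score of 298 and a pooled rank of 263, with ranks of 194, 298 and 331. It was 294 bp from the TSS of eIF1 and 87 bp from that of RpL28, a gene for a protein of the large ribosomal subunit. The same peak is the best peak of RpL28.

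The sequences at the summits are shown for the peaks set beside a neighbour's start, on which the account of the highest peaks turns, and, for comparison, for eIF3a, eIF1A and eIF4E1, described further on. Each runs 5′ to 3′ on the strand of the eIF gene and holds at most 50 bp on either side of the summit, ending earlier at an annotated exon. Capitals mark matches, on either strand, to any of TATCGATA (the DRE, bound by the factor Dref), GGTCACAC (the core of a further core promoter motif), CACGTG (E-box), GAGAG (GAGA factor), TATAAA (the TATA box) or the homeodomain core TAATTA, and to its variant written TAATTG.
eIF2Bbeta, beside Ugalt, chrX:2703870-2703970, plus strand: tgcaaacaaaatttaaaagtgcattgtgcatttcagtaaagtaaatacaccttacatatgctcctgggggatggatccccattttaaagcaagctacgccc
eIF4EHP, beside CG18428, chr3R:24109175-24109275, minus strand: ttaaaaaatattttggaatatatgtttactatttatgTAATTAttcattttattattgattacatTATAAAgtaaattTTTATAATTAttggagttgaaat
eIF1, beside RpL28, chr3L:3222997-3223097, plus strand: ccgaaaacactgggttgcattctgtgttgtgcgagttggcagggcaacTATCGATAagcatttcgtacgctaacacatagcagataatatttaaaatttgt
eIF3a, midway to CG1074, chr3R:4433896-4433964, minus strand: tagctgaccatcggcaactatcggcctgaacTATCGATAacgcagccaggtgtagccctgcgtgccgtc
eIF1A, own TSS nearest, chr3R:18274554-18274654, plus strand: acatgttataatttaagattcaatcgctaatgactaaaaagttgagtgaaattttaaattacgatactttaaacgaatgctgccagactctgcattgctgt
eIF4E1, own TSS nearest, chr3L:9402461-9402542, minus strand: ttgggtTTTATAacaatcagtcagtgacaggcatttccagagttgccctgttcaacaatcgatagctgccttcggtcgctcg

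The highest peak nearest to a member's own protein-coding TSS was that of eIF6, whose product keeps the large ribosomal subunit from joining prematurely. It lay at chr2R:23850294-23850516, 97 bp upstream of the eIF6 TSS, with a score of 517 and a pooled rank of 58. It ranked 107, 55 and 48 in replicates 1, 2 and 3. A non-coding antisense gene, asRNA:CR45928, starts nearer to that summit. The next, at eIF3c, lay 60 bp upstream of its TSS at chr2R:17665423-17665812, with a score of 233, a pooled rank of 434 and replicate ranks of 389, 592 and 408. The protein made from eIF3c is a core subunit of eIF3 that contacts eIF1. Both peaks stood in the top 2743 of all 3 replicate lists, as did the 3 beside a neighbour.

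The replicate ranks of the lower peaks lay further apart in number of places, though not always in proportion. The best peak of eIF5B, which encodes the GTPase of subunit joining, lay at chr3L:3460521-3460910, with a score of 168 and a pooled rank of 905 but replicate ranks of 2201, 677 and 838. Its summit was 113 bp upstream of the nearer of the 2 eIF5B TSSs, in a UTR exon of the longer transcript. The gene is long, and the other 2 optimal summits lay 27777 and 21919 bp inside it in an intron, at pooled ranks 1034 and 2506. Both were nearer to the TSS of sty, at 7891 and 13749 bp. The first was in the top 2743 of every replicate, with ranks of 1929, 1432 and 693. The second was in that of replicate 3 alone, with ranks of 2870, 4619 and 2136.

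At eIF3h, the gene of a non-core subunit of eIF3, 2 optimal peaks overlapped by 128 bp. The higher, at chr2L:5052309-5052698, had a score of 138, a pooled rank of 1338 and a summit 276 bp downstream of the nearer TSS, in an intron. The lower had a pooled rank of 2231 and a summit 14 bp downstream. In each replicate both met the same peak, at ranks of 847, 2393 and 1689, so the replicate lists did not separate them.

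The last 4 bound members stood near the end of the optimal list. The peak at eIF1A, whose product works with eIF1 during scanning, lay 61 bp upstream of the TSS at chr3R:18274409-18274798, with a score of 109, a pooled rank of 2065 and ranks of 1515, 3126 and 2277. That at eIF3m, for a further eIF3 subunit, lay 51 bp upstream at chr2R:14164681-14165070, with a score of 104, a pooled rank of 2249 and ranks of 1826, 1754 and 2561. The first was outside the top 2743 in replicate 2 and the second was inside it in all 3. The peak of eIF4E1, the gene of the general cap-binding protein, lay 32 bp upstream of the nearest of its 4 TSSs at chr3L:9402297-9402686, with a score of 97.4, a pooled rank of 2493 and ranks of 1329, 2617 and 3665. The lowest was that of eIF3a, a core subunit of eIF3, 35 bp upstream of the TSS at chr3R:4433735-4434124, with a pooled rank of 2589 and ranks of 3581, 5001 and 2435. The peak of eIF4E1 was thus in the top 2743 of 2 replicates and that of eIF3a in that of replicate 3 alone, while 8 of the 11 best peaks were in the top 2743 of all 3.

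Over all 15 optimal peaks in member windows, none of which was shared by a pair of members, 10 were matched in the top 2743 of every replicate (66.7%), beside 60.7% of all optimal peaks. By replicate, 80.0%, 73.3% and 93.3% of the 15 were matched in replicates 1, 2 and 3, a mean of 82.2% ± 10.2 (SD, n = 3), beside 82.8% ± 3.04 for all optimal peaks. The optimal list was made from these replicates, so such overlap is built in. Both eIF3h peaks met the same replicate peaks and are counted separately in these shares. At the edge of the list, the last bound member was eIF3a (score 95.4, rank 2589) and the first unbound one eIF3b (score 74.3, rank 3887).

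By complex, the counts below stand beside 19.7% of all protein-coding genes bound. Both eIF1 and eIF1A were bound, but the eIF1 peak was nearer to the TSS of RpL28. The eIF1A peak was outside the top 2743 of replicate 2, at rank 3126. Of the 16 genes for eIF3 subunits 4 were bound (25.0%), namely those for subunits a, c, h and m, a share near that of all genes (95% Wilson interval 10.2 to 49.5). Of the 5 genes for eIF2B subunits 1 was bound, eIF2Bbeta, and of the 3 genes for the subunits of eIF2 itself 0 were. In the eIF4E family 2 of 7 were bound, eIF4E1 and eIF4EHP. None of eIF4A and the 5 genes of the eIF4G, eIF4B and eIF4H group was bound. The GTPase gene eIF5B was bound and eIF5, whose product stimulates GTP hydrolysis by eIF2, was not. Neither eIF2A nor eIF2D, which act in non-canonical initiation or recycling, was bound. With groups of this size no share was compared between complexes.

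Among the 18 unbound members with a pooled-list peak, ranks ran from 3887 to 29269 with a median of 9498.5. For 14 of them the own TSS was within 500 bp of that best summit. The same share over all unbound genes was not computed, so the count says nothing particular to the eIF genes. A neighbour's TSS was nearer to the summit at eIF5 (exd), eIF2Bdelta (CG30414), eIF4H1 (CG34015) and eIF4E6 (CG1951). All 18 stood below every bound member by the rule, and they spread over the rest of the pooled list. The highest were eIF3b (replicate ranks 3826, 7841 and 3031), eIF4G2 at pooled rank 4030 (5989, 18943 and 3736) and eIF4A, the RNA helicase of the cap-binding complex, at pooled rank 4199. The eIF4A peak was the only one of the 18 to enter the top 2743 of any replicate, with ranks of 2485, 3870 and 10954. The next were eIF2D (5014), eIF3k (6497), eIF4G1 (7885), eIF2A (8149) and eIF5 (9056). The others were eIF3f1 (9238), eIF3l (9759), eIF2alpha (12183), eIF2Bgamma (12331), eIF2Bdelta (14588) and eIF4H1 (15235). Last came eIF2beta (18732), eIF4E6 (19457), eIF4E4 (28128) and eIF2Balpha (29269). Of these 18 peaks 6 were overlapped by a peak in all 3 whole replicate lists, as were 11 of 11 for the bound members. The optimal list was derived from those same lists, so this contrast is built in and is no evidence about the genes. The 15 without any pooled-list summit were eIF2Bepsilon, eIF2gamma, eIF3d1, eIF3d2, eIF3e, eIF3f2, eIF3g1, eIF3g2, eIF3i, eIF3j, eIF4B, eIF4E3, eIF4E5, eIF4E7 and eIF4H2.

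Paralogs differed most in the eIF4E family. There eIF4E1 (rank 2493) and eIF4EHP (rank 81) were bound, eIF4E4 and eIF4E6 had pooled-list peaks at ranks 28128 and 19457, and eIF4E3, eIF4E5 and eIF4E7 had none. The eIF4EHP summit was nearer to the TSS of CG18428, and the window of that member was 46884 bp, beside 1736 to 4791 bp in the rest of the family. The eIF4E1 call was lost with the peaks matched in all 3 replicates. Outside the eIF4E family no paralog pair had a bound member. Neither eIF3d1 nor eIF3d2, and neither eIF3g1 nor eIF3g2, had a pooled-list summit, while eIF3f1 had one at rank 9238 and eIF3f2 none, and eIF4H1 one at rank 15235 and eIF4H2 none. The eIF4H1 peak was overlapped by no peak of any replicate list, and its summit was nearer to the TSS of CG34015, at 278 bp. In the eIF4E family, the eIF4E6 summit was nearer to the TSS of CG1951, at 578 bp. That peak was overlapped in the replicate 3 list alone. Both eIF4G genes had unbound peaks, at rank 7885 for eIF4G1 and 4030 for eIF4G2. The eIF4G2 summit was 48 bp from a TSS that eIF4G2 shares with CG33111, so the peak cannot be assigned to either.

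For 7 of the 11 bound members the own TSS was the nearest protein-coding TSS to the best summit. At an eighth, eIF3a, the summit was midway between its TSS and that of CG1074, 35 bp from each. Counting that tie, 8 of 11 (72.7%) had the nearest TSS, beside 66.8% of all bound protein-coding genes. At the other 3, eIF2Bbeta, eIF4EHP and eIF1, the neighbour was nearer, and these were 3 of the 4 highest peaks. The nearer neighbour was transcribed away from the member in each of them.

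**Figure D2:**
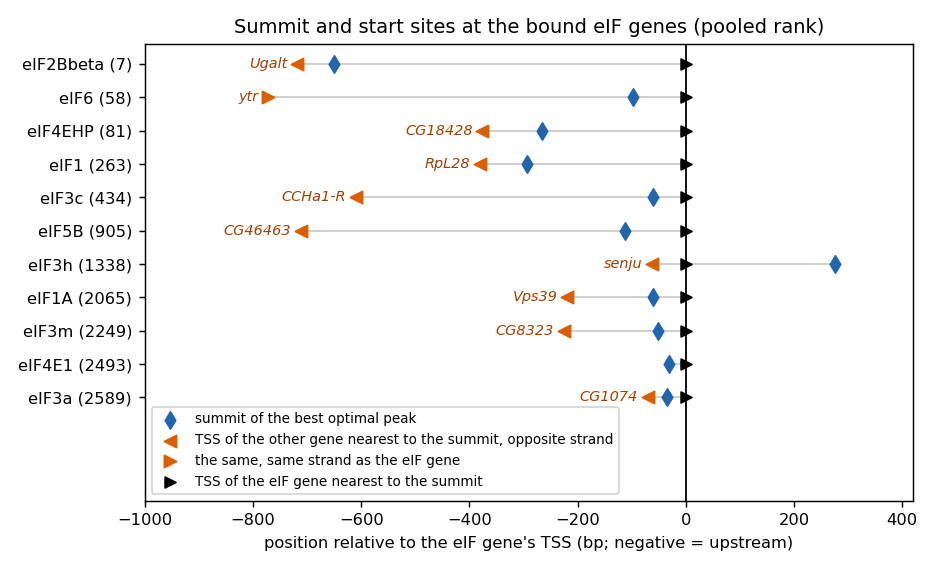
Position of the best optimal summit at the 11 bound eIF genes, in bp from the member's own TSS nearest to the summit (negative is upstream), with the TSS of the other protein-coding gene nearest to the summit. Summits stand beside the neighbour's start at eIF2Bbeta, eIF4EHP and eIF1 and midway at eIF3a. The nearest other TSS at eIF4E1, at -2337 bp, is off the axis.

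Of the 11 bound members 9 had a head-to-head neighbour (81.8%), beside 58.4% of all bound genes. A gene was counted as having one when the 5′ end of a protein-coding gene on the other strand lay at most 1000 bp upstream or 500 bp downstream of its own. That held for 21 of the 44 members (47.7%) and for 34.7% of all protein-coding genes. Of the 21, 9 were bound (42.9%), beside 33.1% of all genes with such a neighbour. Of the 23 without one 2 were bound (8.70%), eIF6 and eIF4E1, beside 12.5% of all genes without one. The same ordering was thus present in the members and in the annotation as a whole. The window of such a gene also takes in the start of its neighbour, and the part of this in the counts was not tested.

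**Figure D3:**
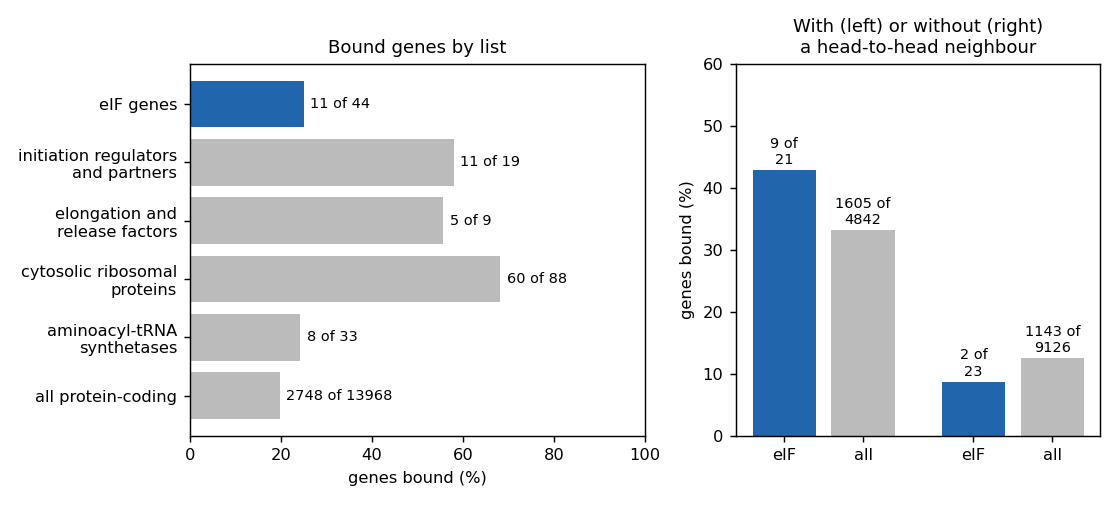
Share of genes bound, in percent, with counts beside the bars. Left, the eIF genes (blue, 11 of 44), 4 other gene lists and all protein-coding genes. Right, eIF genes (blue) and all protein-coding genes (grey) with and without a head-to-head neighbour: 9 of 21 and 2 of 23 eIF genes were bound.

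Of the summit sequences shown above, that of eIF3a is the whole stretch between its start and that of CG1074, 69 bp, and it holds the DRE. That of eIF1 holds another at the summit. Within 50 bp of the summit the DRE was present at 2 of the 15 member peaks (13.3%), those of eIF1 and eIF3a, beside 2.77% of all optimal peaks and 6.29% of the 101 bp just upstream of the 5′ ends of all protein-coding genes. The homeodomain core TAATTA was present at 2 of the 15, at eIF4EHP and in the eIF5B intron at rank 1034 (13.3%), beside 10.8% of all optimal peaks and 5.61% of promoters. TAATTG, GGTCACAC and CACGTG were present at 0 of the 15, beside 11.3%, 0.656% and 0.656% of all optimal peaks. TATAAA was at 4 of the 15 (26.7%, beside 22.6% of all optimal peaks and 20.2% of promoters) and GAGAG at 1, that of eIF3c (6.67%, beside 8.31% and 13.3%). The matches overlap in places, as TATAAA and TAATTA do in the eIF4EHP sequence. The windows were 63.9% ± 12.5 A and T (SD over 15 windows), beside 66.7% ± 8.68 for all optimal peaks, and ran from 42.6% to 87.1%.

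Genes that act with the initiation factors but carry other names were counted by the same rule. Of 19 regulators and partners 11 were bound (57.9%, beside 19.7% of all protein-coding genes), and 7 had a summit within 500 bp of their own TSS (36.8%, beside 15.1%). The own TSS was nearest to the best summit in 8 of the 11 (72.7%, beside 66.8% of all bound genes), and a neighbour's was nearer at mTor, cup and Pdcd4. The kinase gene Lk6, whose product phosphorylates eIF4E, had a peak at pooled rank 17 (replicate ranks 13, 18 and 23). The gene larp, for an RNA-binding protein of growth-regulated mRNAs, had one at rank 51 (48, 49 and 59). The others bound were mTor, pix, pAbp, cup, bel, Paip2, Pdcd4, Thor and NAT1. The peaks of bel and NAT1 were overlapped by no peak of the replicate 2 list. That of Pdcd4 had replicate ranks of 6098, 1305 and 3138. Thor encodes the eIF4E-binding repressor 4E-BP, and its peak ranked 2371 in the pooled list and 3058, 10142 and 1259 in replicates 1, 2 and 3. Those not bound were crc, mxt, S6k, Gcn2, MCTS1, 4E-T, DENR and PEK. The windows of this list were longer, with a median of 7851 bp beside 2967.5 bp for the eIF genes.

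Of 9 elongation and release factor genes 5 were bound (55.6%, beside 19.7% of all protein-coding genes), namely eEF1gamma (rank 254), eEF1alpha1 (rank 686), eRF1 (rank 720), eRF3 (rank 1398) and eEF2 (rank 1735). The own TSS was nearest in 4 of the 5. The cytosolic ribosomal protein genes, with a median window of 2325.5 bp, were bound in 60 of 88 cases (68.2%), and in 58 of those 60 the own TSS was the nearest (96.7%, beside 66.8% of all bound genes). The aminoacyl-tRNA synthetase genes, with symbols ending in RS or RS-m, were bound in 8 of 33 cases (24.2%), a share near the 19.7% of all genes. Of those ending in RS-m only LeuRS-m was bound, so the share mixes 2 unlike sets. The own TSS was nearest in 4 of the 8 bound genes, beside 66.8% of all bound genes. The difference between these lists and the eIF genes was not tested.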

How the data were processed

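The dm6 peak lists deposited for each of 3 replicates, for the replicates pooled and as an optimal list were used. Per the deposited README files, the authors derived each list from the alignments of the samples and 1 further file, which the READMEs also name for the control-normalized signal, and the optimal list from the replicate and pooled lists. No source used here names the aligner or the program that called the peaks. Each peak carries a score deposited by the authors on a scale not stated, used to rank and describe peaks within a list. It also carries the authors' −log10 q, which was not used, and a deposited summit offset. The 5 dm3 lists were not used.

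Genes are from Ensembl release 115 (BDGP 6.54) and sequences from the RefSeq Release 6 genome, on which every peak lies within its arm. Coordinates are 1-based. Summits were assigned with Python 3.11.15 and pandas 2.3.3, and the code was tested on simulated data. TSSs are all transcript starts of protein-coding genes. Replicate rank is that of the best replicate peak overlapping by at least 1 bp. The regulator symbol Tor was matched as mTor. Members and lists were chosen with earlier results of these data known, and no test was run. All members are accounted for. Bound ones are named with their best peak, unbound ones with their pooled rank, and neighbours where their TSS is nearer. Proteins were not compared, and no sequence of chromosome arm 2R is printed.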

Additional observations from a re-analysis of the deposited data

How the results depend on the processing

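With the 1371 optimal peaks of higher score, 7 eIF genes were bound (15.9%, beside 11.5% of all genes) and 4 had the nearest TSS, with eIF1A, eIF3a, eIF3m and eIF4E1 lost. With the peaks matched in all 3 replicates, 8 were bound (18.2% beside 13.0%) and 5 had the nearest TSS, with eIF1A, eIF3a and eIF4E1 lost. Without the 1 kb upstream only 3 were bound, eIF4EHP, eIF5B and eIF3h (6.82%, beside 7.82% of all genes). There the eIF4EHP call rested on its intron peak at rank 2169, which was nearer to the TSS of Syx1A. With every pooled-list peak 29 were bound (65.9% beside 63.2%). The member count stayed within 1.5 times the 11 under the remaining choices of window, with 10 for TSS windows (22.7% beside 15.1%), 11 for any base of the peak (25.0% beside 20.7%) and 13 with 2 kb upstream (29.5% beside 21.6%), which added eIF2Bgamma and eIF3d1. Peaks were not called again with a replicate left out. Leaving one out instead kept the optimal peaks matched in the top 2743 of both remaining replicates, so losses reflect the ranks in those that remained. The rank of eIF1A was 3126 in replicate 2 and that of eIF4E1 3665 in replicate 3. Those of eIF3a were 3581 and 5001 in replicates 1 and 2. Leaving out each replicate in this way gave 8 to 9 bound genes, and 5 to 6 with the nearest TSS, the lowest without replicate 1. Without replicate 1, eIF1A, eIF3a and eIF4E1 were lost (18.2% beside 15.3% of all genes), without replicate 2, eIF3a and eIF4E1 (20.5% beside 14.3%), and without replicate 3, eIF1A and eIF3a (20.5% beside 14.3%). Of the 15 peaks, 5 were matched in all 3 replicates with lists of 1371, 8 with either stricter matching rule and all 15 with lists of 5486. With the motif window widened to 100 bp, TAATTG was at 2 of the 15 peaks in place of 0 (13.3%, beside 20.1% of all optimal peaks and 18.6% of promoters). Read depth is unknown, so no limit can be set on weak binding at the unbound members.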
